A study of Mus musculus with 10 samples.

Results

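The genes described here are 10 genes of neutrophils and of granulocyte colony-stimulating factor (G-CSF), of the 21959 genes in the expression table: Csf3, Csf3r, Il1b, Il1r2, S100a8, S100a9, Lcn2, Chil3, Retnlg and Trem1. They were chosen by name, and 3 of them (S100a8, S100a9 and Chil3) also on their high level in 1 exercise tumor, so that the values of these 3 genes are given as a description without a test. RNA was sequenced from 10 tumors grown from 4T1 cells, a mammary carcinoma line of BALB/c origin that lacks the hormone receptors targeted in breast cancer therapy. The cells had been injected under the skin of the abdomen of female BALB/c mice 5 to 6 weeks old, so the tumors are grafts of a single cultured line with cells of the host around them. The exercise group (E) had free use of running wheels and the non-exercise group (NE) was kept under ordinary housing, with 5 tumors in each group taken after 21 days. Tumors are named by group and replicate, E1 to E5 and NE1 to NE5.

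Neutrophils are short-lived white blood cells made in the bone marrow. G-CSF, the product of Csf3, is the main cytokine that drives their formation and release, and it acts through the receptor encoded by Csf3r. 4T1 tumors are known for secreting G-CSF and for raising the number of circulating granulocytes in the host. Neutrophils carry large amounts of the calcium-binding proteins S100A8 and S100A9 and of the iron-scavenging protein lipocalin 2, and they answer to interleukin-1 and to chemokines that bind the receptor CXCR2. Several of the 10 genes are not restricted to them, since monocytes and macrophages also express Il1b, Trem1 and Chil3 and epithelial cells can express Lcn2.

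In the mouse reference (GRCm38, GENCODE M21) all 10 are protein-coding genes. Csf3 lies at chr11:98701263-98703629 and Csf3r at chr4:126024550-126044440, both on the forward strand. Il1b is at chr2:129364570-129371139 on the reverse strand, where an antisense transcript (Il1bos) overlaps it, and Il1r2 at chr1:40074079-40125231 on the forward strand, where Gm16894 is antisense. S100a8 (chr3:90668978-90670035, forward) and S100a9 (chr3:90692632-90695721, reverse) are neighbors with 22596 bp and 0 annotated genes between them. Lcn2 is at chr2:32384633-32388252 (reverse), Chil3 at chr3:106147554-106167564 (reverse), Retnlg at chr16:48872621-48874496 (forward) and Trem1 at chr17:48232768-48246924 (forward), the last with a processed pseudogene on the other strand. Whether the counting used strand is not given in the sources used here, so reads of a gene and of an antisense partner may have been counted together. Of the 50-base stretches of its transcripts, Chil3 shares 26.9% with Chil4 and Gm6522, and Csf3r shares 10.5% with other genes, mainly AC105061.2. Chil4 had 1 read in all tumors together. The other 8 genes share no stretch of this length.

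Upstream sequences were matched in RefSeq for 9 of the 10 genes, Csf3 being the exception. They are shown for S100a9 and Chil3, which were high in tumor E5, for the cytokine gene Il1b, and for Trem1, whose values did not overlap between the groups. Each is the 250 bases before the RefSeq start site in GRCm38.p6, read 5′ to 3′ on the strand of the gene, at chr3:90695722-90695971 (reverse), chr3:106167565-106167814 (reverse), chr2:129371140-129371389 (reverse) and chr17:48232489-48232738 (forward). Capitals mark matches on either strand to TATAAA (the TATA box), TTNNGNAA (the core of sites for C/EBP factors, which take part in granulocyte development) and TTCNNNGAA (the STAT site).
S100a9: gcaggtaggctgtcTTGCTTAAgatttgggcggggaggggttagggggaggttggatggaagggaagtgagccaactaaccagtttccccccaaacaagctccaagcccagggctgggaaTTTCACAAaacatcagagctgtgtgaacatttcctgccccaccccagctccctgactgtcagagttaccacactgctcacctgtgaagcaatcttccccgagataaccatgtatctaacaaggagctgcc
Chil3: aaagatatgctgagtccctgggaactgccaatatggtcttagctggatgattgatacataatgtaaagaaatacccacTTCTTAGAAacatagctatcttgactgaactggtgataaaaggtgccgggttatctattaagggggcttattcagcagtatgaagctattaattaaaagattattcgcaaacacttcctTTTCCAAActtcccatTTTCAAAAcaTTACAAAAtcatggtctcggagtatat
Il1b: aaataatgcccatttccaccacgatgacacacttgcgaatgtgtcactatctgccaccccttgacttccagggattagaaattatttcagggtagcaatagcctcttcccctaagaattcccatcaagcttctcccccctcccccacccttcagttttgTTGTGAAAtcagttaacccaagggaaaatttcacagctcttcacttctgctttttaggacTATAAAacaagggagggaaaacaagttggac
Trem1: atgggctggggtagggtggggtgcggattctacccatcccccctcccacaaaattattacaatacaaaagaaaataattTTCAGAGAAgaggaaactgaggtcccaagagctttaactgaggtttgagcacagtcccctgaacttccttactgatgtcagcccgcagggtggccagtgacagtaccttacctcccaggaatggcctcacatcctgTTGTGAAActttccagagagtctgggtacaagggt

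S100a9 held C/EBP matches 236 and 130 bases before its start and no TATA box. In Il1b, a TATA box at 31 bases and a C/EBP match at 91 bases were found. Chil3 had 3 C/EBP matches, at 53, 37 and 27 bases, and a STAT match at 172 bases. Trem1 carried a C/EBP match at 35 bases and a STAT match at 171 bases. Of the sequences that are not shown, S100a8 had a TATA box at 30 bases and a C/EBP match at 117 bases, Lcn2 and Retnlg a C/EBP match each at 216 and 246 bases, Il1r2 a STAT match at 111 bases, and Csf3r no match. Among the same windows of 27025 genes, 12.97% held TATAAA, 36.9% TTNNGNAA and 7.18% TTCNNNGAA. These matches describe the letters of the window and were not tested for binding.

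Between 15045613 (E5) and 23092251 (NE1) reads were counted per tumor. Levels are given as FPKM, read counts divided by gene length and library total, which allows levels of different genes to be compared. In bulk tissue, fewer cells of a type and less RNA per cell cannot be told apart. The labelled tumor tissue was checked with epithelial markers (Epcam, Krt8, Krt18, Krt19 and Cdh1), of which 3 of 5 passed the filter on low counts, with summed levels of 7.98 to 11.9 FPKM in E and 10.6 to 18.5 FPKM in NE, and Krt8 had no read in 1 tumor. Markers of neutrophils outside the 10 genes did not behave alike. Ly6g, a surface marker of mouse neutrophils, had 1 to 8 reads per tumor and Mpo, which is made by their precursors, 0 to 3 reads, with no high value in E5 (4 and 2 reads). Cxcr2 had 413 reads in E5 and 10 to 70 in the other tumors, and Mmp8 had 118 reads in E5 and 19 to 67 in the others. The 10 genes are therefore referred to by name and not as a measure of neutrophil number.

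Csf3 was close to the limit of detection in every tumor other than E5. It had 0.137, 0.0759, 0.0687, 0.153 and 2.45 FPKM in E1 to E5 and 0.0613, 0, 0, 0.0308 and 0.0331 FPKM in NE1 to NE5. These levels rest on 52 reads in E5 and on 16 reads in the other 9 tumors together, and the 0 reads in NE2 and NE3 allow levels of up to 0.114 and 0.0934 FPKM. E5 stood alone above all other tumors. As CPM, the count scaled by the total count alone, the level in E5 was 3.46 (95% Wilson interval 2.64 to 4.53), which was 40.5 times the pooled value of the other 9 tumors (95% exact interval 22.7 to 75.9). The other 4 exercise tumors together had 12 reads and the 5 non-exercise tumors 4 reads, a CPM ratio of 4.16 (95% exact interval 1.26 to 17.7). All these intervals cover the counting error only, and they hold no spread between mice. Each exercise tumor had a higher FPKM than each non-exercise tumor, but E3 and NE1, the closest pair, had 2 reads each. Csf3 was too low for the filter of the group test, and a fit without this filter (edgeR's quasi-likelihood test over 17925 genes) gave a log2 fold change of 4.20 (SE 1.26, unadjusted p of 0.00689, FDR 0.820).

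The receptor gene Csf3r had 6.47, 4.06, 2.29, 4.29 and 21.8 FPKM in E1 to E5 and 1.45, 4.16, 6.58, 6.47 and 5.30 FPKM in NE1 to NE5. E5 was the highest and NE1 the lowest tumor, and the other 4 tumors of each group overlapped. The mean was 7.77 ± 7.96 FPKM in E and 4.79 ± 2.11 FPKM in NE (SD, n = 5), and 4.27 ± 1.71 FPKM in E without E5 (n = 4). The ratio of the group means was 1.62 with E5 and 0.892 without it.

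Il1b, the gene of the inflammatory cytokine interleukin-1β, was the most abundant of the 10 genes in the non-exercise tumors. Its levels were 34.2, 20.6, 17.6, 23.9 and 82.5 FPKM in E1 to E5 and 11.4, 18.5, 29.7, 17.2 and 14.8 FPKM in NE1 to NE5. Most exercise tumors were above most non-exercise tumors, with E above NE in 21 of 25 pairs, and NE2 and NE3 lay within the exercise range. The means were 35.8 ± 26.9 and 18.3 ± 6.90 FPKM, and the exercise mean without E5 was 24.1 ± 7.25 FPKM. Il1r2 encodes the decoy receptor that binds interleukin-1 without signalling. It had 4.52, 4.10, 3.84, 5.11 and 13.2 FPKM in E1 to E5 and 1.95, 4.79, 5.12, 4.09 and 5.07 FPKM in NE1 to NE5. Apart from E5 and NE1 the tumors lay between 3.84 and 5.12 FPKM, with no separation of the groups.

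S100a8 and S100a9 encode the subunits of calprotectin, the main cytosolic protein of neutrophils. S100a8 had 1.88, 2.47, 2.31, 3.81 and 101 FPKM in E1 to E5 and 1.93, 1.08, 2.09, 6.28 and 4.18 FPKM in NE1 to NE5. For S100a9 the levels were 2.60, 2.98, 3.35, 10.2 and 189 FPKM in E1 to E5 and 3.15, 2.46, 2.61, 9.27 and 8.15 FPKM in NE1 to NE5. In both genes E5 was far above the rest, and E4, NE4 and NE5 came next. E5 had 1057 reads of S100a8 and 1488 reads of S100a9, against 14 to 100 and 24 to 111 reads in the other tumors. S100a9 exceeded S100a8 in every tumor, by 1.20 to 2.69 times, and by 1.87 times in E5. Without E5 the exercise mean of S100a8 went from 22.3 ± 44.1 to 2.62 ± 0.830 FPKM, beside 3.11 ± 2.11 FPKM in NE. That of S100a9 went from 41.7 ± 82.6 to 4.79 ± 3.64 FPKM, beside 5.13 ± 3.30 FPKM in NE.

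Lcn2, the gene of lipocalin 2, had 1.11, 0.552, 0.0740, 1.05 and 24.8 FPKM in E1 to E5 and 0.0330, 0.285, 0.822, 2.03 and 0.749 FPKM in NE1 to NE5. E5 was again the highest, with 979 reads, NE4 followed with 122 reads, and the low tumors E3 and NE1 had 4 and 2 reads. Without E5, the exercise mean was 0.696 ± 0.484 FPKM and the non-exercise mean 0.783 ± 0.768 FPKM. Chil3 encodes a secreted chitinase-like protein (Ym1) of myeloid cells. Its levels were 7.66, 13.6, 11.5, 20.1 and 52.4 FPKM in E1 to E5 and 2.47, 5.40, 7.17, 4.17 and 10.03 FPKM in NE1 to NE5. Here the exercise tumors were above the non-exercise tumors in 24 of 25 pairs, the exception being E1 below NE5. The ratio of the means was 3.60 with E5 and 2.26 without it, the largest without E5 among the 9 genes with enough reads for the group fit. As Chil3 was chosen on its level in E5, this is a description.

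Retnlg encodes a resistin-like protein of granulocytes. It had 6.45, 5.79, 0.736, 1.82 and 16.8 FPKM in E1 to E5 and 0.0730, 5.59, 4.90, 15.4 and 2.68 FPKM in NE1 to NE5. E5 and NE4 were high at nearly the same level, NE1 had 1 read, and the groups overlapped over their whole range, with means of 6.32 ± 6.36 and 5.73 ± 5.83 FPKM. Trem1 encodes an activating receptor of neutrophils and monocytes that amplifies inflammatory signals. Its levels were 4.12, 3.99, 2.74, 3.47 and 6.10 FPKM in E1 to E5 and 1.19, 2.62, 2.44, 1.56 and 2.54 FPKM in NE1 to NE5. The lowest exercise tumor (E3) was just above the highest non-exercise tumor (NE2), so that E was above NE in 25 of 25 pairs. The means were 4.08 ± 1.25 FPKM in E and 2.07 ± 0.654 FPKM in NE, and 3.58 ± 0.629 FPKM in E without E5.

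**Figure D1:**
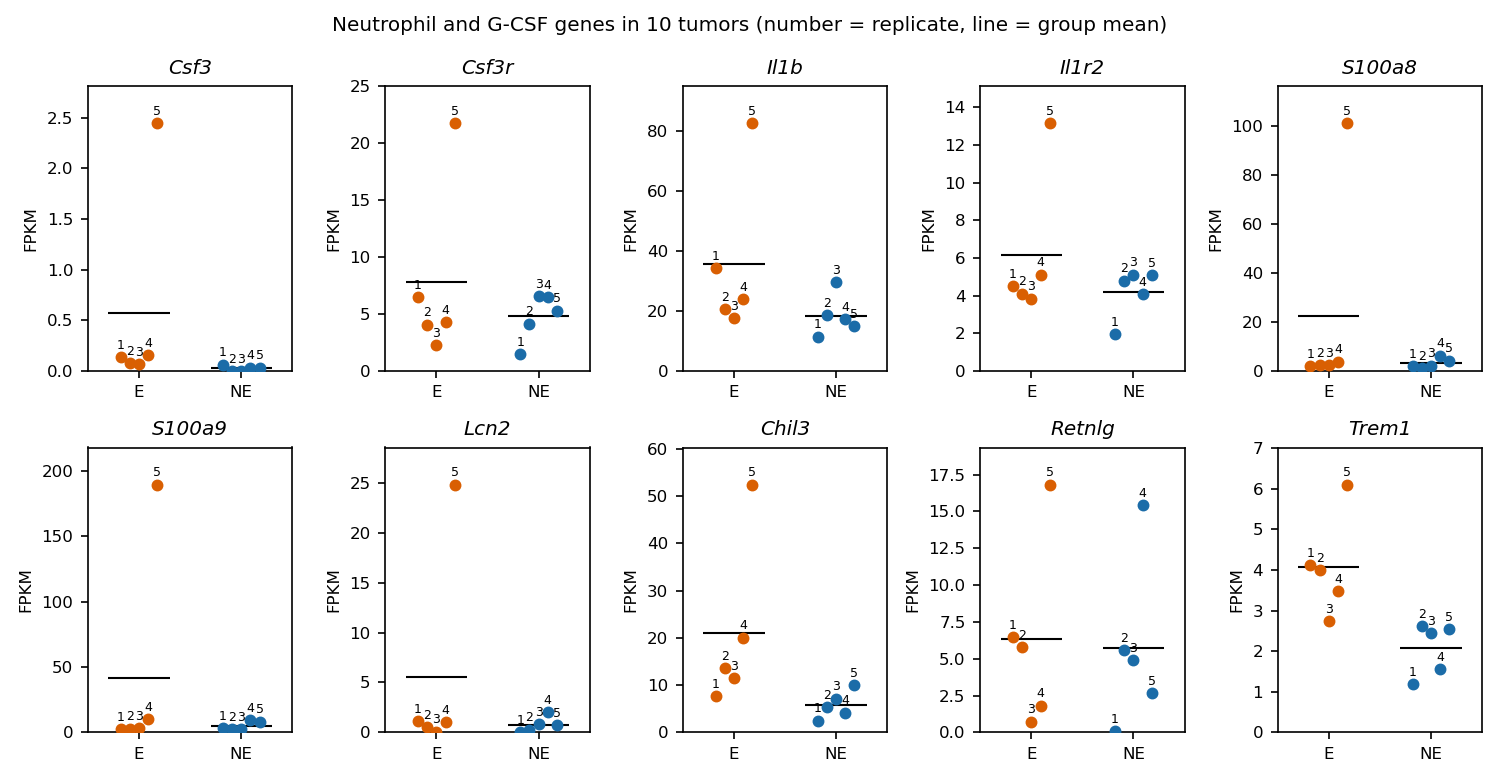
Level of each of the 10 genes in FPKM (vertical axes, from 0, a scale of its own for each gene) in the exercise (E) and non-exercise (NE) tumors, with a point for each tumor, its replicate number beside it and a line at the group mean. E5 is the highest point in every panel, and Trem1 is the gene with over 10 reads in each tumor whose groups do not overlap.

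E5 was the highest of the 10 tumors in 10 of 10 genes, beside 14.4% of the 13517 genes with enough reads to be tested. The 10 genes were chosen with values of E5 known, so nothing is read from this count. Set against the median of the other 9 tumors, E5 was 60.1 times as high in S100a9, 43.9 times in S100a8 and 33.1 times in Lcn2. In Csf3, which had 16 reads in the other 9 tumors together, E5 was 39.9 times as high. The same ratio was 6.85 in Chil3, 5.08 in Csf3r, 4.45 in Il1b and 3.43 in Retnlg, and it was lowest in Il1r2 (2.91) and Trem1 (2.33). Against the highest of the other 9 tumors, it ranged from 1.09 in Retnlg to 18.5 in S100a9. S100a9, S100a8, Csf3 and Lcn2 thus stood further apart in E5 than the receptor genes Csf3r, Il1r2 and Trem1. As S100a8 and S100a9 were chosen on their level in E5, this order is a description. NE1 was the lowest tumor in 7 of the 10 genes, beside 18.7% of all tested genes. Within the non-exercise group, NE4 was the highest in S100a8, S100a9, Lcn2 and Retnlg, and NE3 in Csf3r, Il1b and Il1r2.

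**Figure D2:**
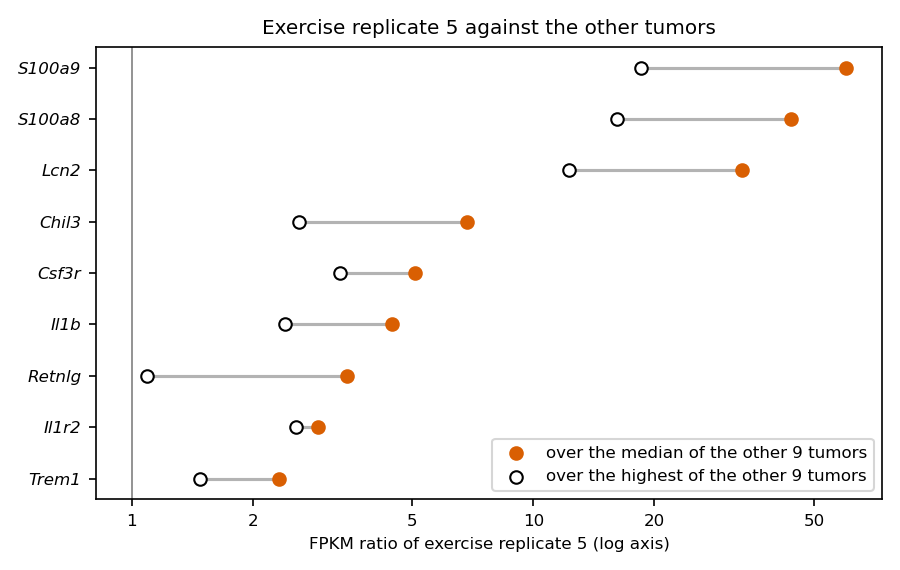
FPKM of tumor E5 divided by the median (filled points) and by the highest value (open points) of the other 9 tumors, on a log axis, for the 9 genes with enough reads for the group fit. S100a9, S100a8 and Lcn2 lie above 10 on both measures, and Retnlg and Trem1 have open points under 2.

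The spread was wide even without E5. The SD of log2(CPM + 1) over the other 9 tumors was above that of 97.6% of the tested genes for Retnlg, 96.8% for Lcn2, 96.7% for Chil3 and 95.3% for Csf3r, and it was lowest for Il1r2, at 84.4%.

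To ask whether the genes differed between exercise and non-exercise tumors, all 13517 genes were fitted with edgeR's quasi-likelihood test, and calls required a fold change of 2 or more together with a false discovery rate (FDR, adjusted over all tested genes) of 0.05 or less. The fit included 9 of the 10 genes, and 6 of these were tested (Csf3r, Il1b, Il1r2, Lcn2, Retnlg and Trem1). None of the 6 was called, beside 0% of all genes (0 of 13517). At an unadjusted p under 0.05 there was 1 of the 6, Trem1, beside 4.86% of all genes. By the same count DESeq2 gave 2 genes, edgeR's exact test 3 and limma-trend on log2(FPKM + 1) 1, and none of these tools called any of the 6. The share of all genes under 0.05 by these other tools was not counted, so nothing is read from their counts. DESeq2 returned no p for Lcn2.

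Trem1 was higher in E with a log2 fold change of 0.94 (SE 0.267, unadjusted p of 0.00505, FDR 0.897 by edgeR), at rank 37 of all tested genes by p. Without E5 the log2 fold change of Trem1 was 0.76 (SE 0.252, unadjusted p of 0.0139, FDR 0.9997 by edgeR). It was 1 of 6 tested genes with every exercise tumor above every non-exercise tumor, which held for 0.555% of all genes. Il1b had a log2 fold change of 0.93 (SE 0.428, unadjusted p of 0.0547 by edgeR) and one of 0.36 without E5. For Lcn2 it was 2.73, with an SE of 1.39 (unadjusted p of 0.0765), and -0.23 without E5. Csf3r (0.64, SE 0.602) and Il1r2 (0.51, SE 0.385) had unadjusted p values of 0.309 and 0.217, and log2 fold changes of -0.21 and 0.03 without E5. In Retnlg the log2 fold change was 0.06 (SE 0.976). The FDR of these 5 genes was 0.897 or higher. The 3 genes without a test had log2 fold changes of 2.77 (S100a8), 2.96 (S100a9) and 1.80 (Chil3), and of -0.30, -0.15 and 1.14 without E5. Over all 9 genes the median log2 fold change was 0.94 with 9 higher in E, and without E5 it was -0.15 with 4 higher and 5 lower. All tested genes had a median of -0.01 in both fits. The members were chosen with values of E5 in view, so these medians describe them only.

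**Figure D3:**
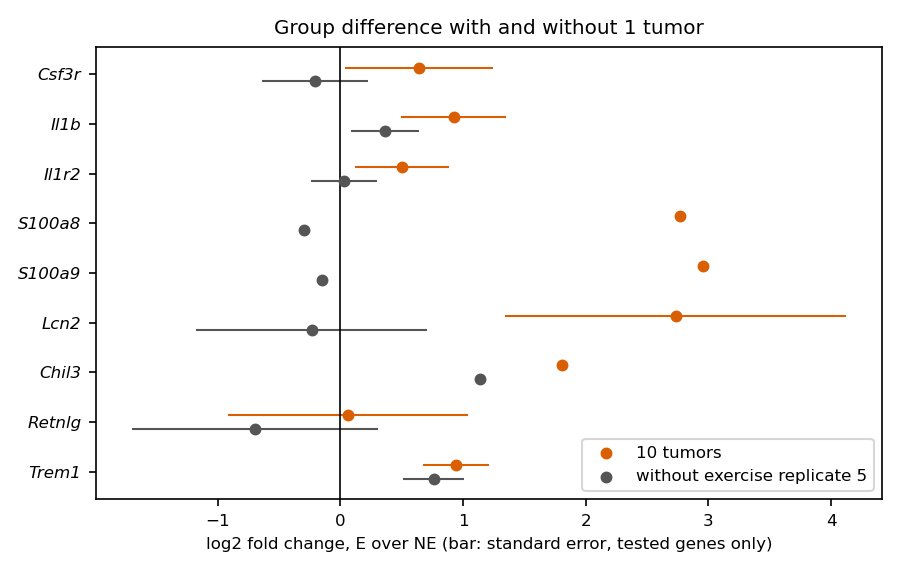
Log2 fold change of E over NE from edgeR for the 9 genes with enough reads, with all 10 tumors and without E5. Bars are standard errors and are drawn for the 6 tested genes, and a vertical line marks 0. Without E5 the points of Csf3r, S100a8, S100a9, Lcn2 and Retnlg lie left of 0, and those of Il1b, Il1r2, Chil3 and Trem1 right of 0.

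Ligands and receptors were compared across the 10 tumors in 4 relations of log2(CPM + 1), with permutation p values adjusted over the 4. The receptor genes Csf3r and Il1r2 moved together with a Pearson's r of 0.923 (permutation p of 0.00140, adjusted 0.00560) and a Spearman's rho of 0.721 (permutation p of 0.0231, adjusted 0.0926). Leaving out E5 and NE1, the tumors farthest from the median of Csf3r, gave r = 0.503, so that the relation rests on these tumors. Il1b and its decoy receptor Il1r2 had r = 0.875 (permutation p of 0.00342, adjusted 0.00684) and rho = 0.539 (permutation p of 0.113, adjusted 0.226), and r = 0.739 without E1 and E5. For Csf3 and Il1b, r was 0.831 (permutation p of 0.0225, adjusted 0.0300), rho was 0.450 (permutation p of 0.193, adjusted 0.258), and r fell to 0.223 without E4 and E5. The ligand Csf3 and its receptor Csf3r had r = 0.722 (permutation p of 0.0622, adjusted 0.0622), rho = 0.0669 (permutation p of 0.856, adjusted 0.856) and r = -0.148 without E4 and E5. The high r values of the pairs with Csf3 thus depended on tumor E5. Without E5 alone, Il1b with Il1r2 had r = 0.642 (permutation p of 0.0679) and rho = 0.367. In the same setting Csf3r with Il1r2 had r = 0.821 (permutation p of 0.0118) and rho = 0.617. The genes were chosen with values of E5 known, so the p values of the 4 relations are not read against chance.

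The 13498 other genes with enough reads were ordered by the Pearson's r of log2(CPM + 1) with S100a8, Csf3r and Csf3 over the 10 tumors, as a description. Those most like S100a8 were Mdk (r = 0.964), Gadd45b (0.954), G0s2 (0.946), Arg2 (0.942) and Cxcr2 (0.941), and without E5 their r was 0.797, 0.627, 0.687, 0.326 and 0.605. Those most like Csf3 were Arg2 (0.969), Cxcl2 (0.969), Dbndd1 (0.958), Il1a (0.956) and Nfkbia (0.956), with r of 0.450, 0.697, 0.331, -0.246 and 0.721 without E5. For Csf3r the order was P2rx4 (0.984), Ifnar2 (0.970), Rab3il1 (0.967), Fpr1 (0.965) and Ptpn1 (0.960). Here r without E5 was 0.971, 0.942, 0.947, 0.930 and 0.959. Without E5 every r was lower, and r ranged from 0.930 to 0.971 for the genes named for Csf3r, from 0.326 to 0.797 for those of S100a8 and from -0.246 to 0.721 for those of Csf3. Fpr1 and Cxcr2 encode chemoattractant receptors of neutrophils.

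Around the 10 genes, 7 lists with 88 other genes of the pathway were followed, of which 67 were tested. None of the 67 was called by edgeR, and 8 had an unadjusted p under 0.05, all of them higher in E, beside 347 higher and 310 lower among all tested genes. In direction, 53 were higher and 14 lower in E with a median log2 fold change of 0.16, beside 6221 higher and 7296 lower of all tested genes with a median of -0.01. Without E5, 38 were higher and 29 lower with a median of 0.03, beside 6159 higher and 7358 lower of all tested genes. E5 was the highest tumor in 34 of the 67, and in 1947 (14.4%) of all 13517 tested genes. The lists were chosen with earlier results of these data known, so nothing is read from these counts and medians. All FDR values of the genes named from these lists were 0.897 or higher.

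The chemokines that bind CXCR2 and draw in neutrophils had the largest median of the 7 lists, 2.17 with 5 of 5 tested genes higher in E, and 0.71 without E5. Cxcl2 had 3.61, 2.28, 1.95, 3.52 and 69.6 FPKM in E1 to E5 and 2.18, 2.22, 1.23, 0.674 and 2.22 FPKM in NE1 to NE5. E5 alone stood out, and the log2 fold change of Cxcl2 was 3.21 (unadjusted p of 0.0133 by edgeR) and 0.71 without E5. Cxcl5 had 43.6 FPKM in E5 and 1.09 to 7.64 in the others (2.20, unadjusted p of 0.0239, and 0.78 without E5), and Cxcl3 had 12.1 FPKM in E5 and 0.0747 to 2.19 in the others (2.17, unadjusted p of 0.0307, and 0.82 without E5). The other tested chemokines were not highest in E5. Cxcl1 was highest in E4 (9.95 FPKM, 9.43 in E5), with a log2 fold change of 0.37, and of 0.28 without E5. Ppbp was highest in NE1 (4.88 FPKM, 4.60 in E5), with 0.08, and with -0.19 without E5. Cxcr2, the receptor itself, had 9.01 FPKM in E5 and 0.159 to 1.07 FPKM in the other tumors, with 413 reads against 10 to 70. Of the mature neutrophil list, 12 of 17 genes were tested and 10 were higher in E, with a median of 0.57, and of 0.07 without E5. Clec4d, a lectin receptor of myeloid cells, had a log2 fold change of 0.62 (unadjusted p of 0.0439), and of 0.41 without E5 (unadjusted p of 0.128). The related Clec4e had 0.92 (unadjusted p of 0.0584) and 0.30 without E5, and Hdc, the histamine-forming enzyme, 1.21 (unadjusted p of 0.0553) and 0.43 without E5.

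Of the 12 granule genes, 5 were tested and 4 were higher in E, with a median of 0.03 and of 0.02 without E5. Mmp9, the gene of gelatinase B, had 53.3 ± 34.2 FPKM in E and 22.1 ± 9.14 FPKM in NE (log2 fold change 1.25, unadjusted p of 0.0302 by edgeR). Its highest tumor was E3, with 103 FPKM, and not E5, and without E5 the log2 fold change was 1.12 (unadjusted p of 0.0650). Mmp8 had a log2 fold change of 0.86 (unadjusted p of 0.162), and of 0.02 without E5. For Pglyrp1 these values were -0.11 and -0.24. Elane, the neutrophil elastase gene, had 0 to 4 reads in each tumor, whereas Ctsg (cathepsin G, which mast cells express too) had 23 reads in E5 and 75 to 227 in the others, with a log2 fold change of 0.03, and of 0.28 without E5. Granulopoiesis and G-CSF signalling genes numbered 14 tested, 11 of them higher, with a median of 0.14 and of 0.02 without E5. Socs3, a feedback inhibitor that STAT3 induces downstream of the G-CSF receptor, had 46.9 ± 5.49 FPKM in E and 39.0 ± 2.70 FPKM in NE, a log2 fold change of 0.24 (unadjusted p of 0.0113) and of 0.20 without E5 (unadjusted p of 0.0298). Il17ra and Stat3 had log2 fold changes of 0.18 and 0.05. Il17a, the gene of a cytokine upstream of G-CSF, had 0 reads in every tumor.

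In the interleukin-1 list, 9 of 11 tested genes were higher in E, with a median of 0.08 and of 0.04 without E5. Il1rn, the gene of the receptor antagonist, had 42.3 FPKM in E5 and 10.1 to 17.9 FPKM in the other tumors (log2 fold change 0.63, unadjusted p of 0.0452 by edgeR), and its log2 fold change without E5 was 0.25 (unadjusted p of 0.0698). Nlrp3 (0.75) and Il1a (0.95) had unadjusted p values of 0.0937 and 0.137, and log2 fold changes of 0.28 and -0.10 without E5. Il1a had 3.57 FPKM in E5 and 0.355 to 0.702 FPKM in the others. Of 8 tested receptors and adaptors of the members, 6 were higher, with a median of 0.11 and of 0.03 without E5. Cd14, a co-receptor of the S100A8 and S100A9 receptor TLR4, had 34.5, 28.1, 23.0, 21.1 and 59.6 FPKM in E1 to E5 and 17.2, 22.1, 18.5, 15.6 and 19.3 FPKM in NE1 to NE5. Only E4 was below the highest non-exercise tumor, NE2. The log2 fold change of Cd14 was 0.80 (unadjusted p of 0.00979) and 0.49 without E5 (unadjusted p of 0.00863). Cd14 and Socs3 were the 2 of 67 tested pathway genes with an unadjusted p under 0.05 by edgeR without E5. Both had an FDR of 0.9997 in that fit, and the share of all genes under 0.05 in it was not counted. Slc22a17, a lipocalin 2 receptor, and Ager, a receptor of S100 proteins, had log2 fold changes of 0.12 and 0.16, and of 0.07 and 0.11 without E5. The paralogs of the members, 12 tested and 8 of them higher, had a median of 0.15 and of -0.01 without E5, and the values were 0.31 for S100a16, -0.38 for S100a4 and -0.52 for Treml4 (0.23, -0.43 and -0.80 without E5).

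**Figure D4:**
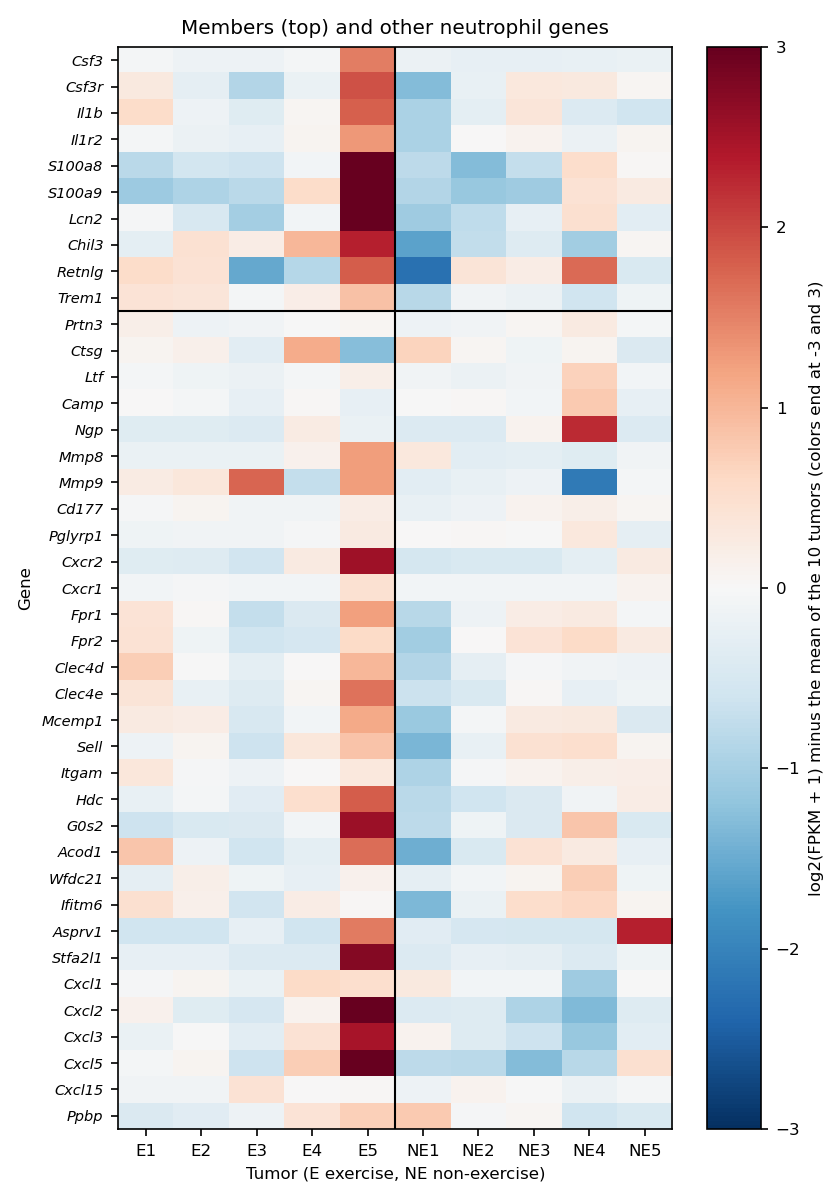
Deviation of log2(FPKM + 1) of each gene (rows) from its mean over the 10 tumors (columns). The 10 genes are above the horizontal line. Below it are the genes of the granule, mature neutrophil and CXCR2 chemokine lists with 10 or more reads in any tumor. Mpo, Elane, Itgb2l and Ly6g had fewer reads and are not drawn. Red is higher, blue is lower, and differences past the ends of the color bar are drawn in its end colors. The E5 column is the reddest, with Cxcr2, Cxcl2, Cxcl3, Cxcl5, G0s2 and Stfa2l1 beside S100a8, S100a9 and Lcn2, while Ngp is highest in NE4 and Asprv1 in NE5.

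Summed markers of fibroblasts and of macrophages and monocytes were also highest in E5. Summed levels of fibroblast markers were 1775 FPKM in E5 and 105 to 570 FPKM in the other 9 tumors (239 to 1775 in E and 105 to 538 in NE), and all 6 markers passed the filter. Those of macrophages and monocytes, 9 of 9 of which passed, were 1273 FPKM in E5 and 390 to 1144 FPKM in the others (716 to 1273 in E and 390 to 1109 in NE), with the lowest sum in NE1, the tumor with the lowest level of 7 of the 10 genes. Of these markers, Csf1r, C1qa, C1qb, C1qc, Cd68 and Mrc1 were highest in E5. Adgre1 was highest in NE4 (57.8 FPKM, 47.7 in E5), Ccr2 in NE3 (23.6, 17.2 in E5) and Ly6c2 in E4 (21.6, 10.6 in E5). The neutrophil markers that are not among the 10 genes (Cxcr2, Ly6g, Mmp8 and Cd177, 3 of 4 of which passed) summed to 13.1 FPKM in E5 and 0.909 to 2.28 FPKM in the others. Most of the sum in E5 came from Cxcr2 (9.01 FPKM) and Mmp8 (3.23 FPKM). Cd177 had 0.562 FPKM in E5 and up to 0.491 FPKM in the others, and Ly6g was highest in NE3 (0.374 FPKM, against 0.282 FPKM in E5). Epithelial markers, at 10.2 FPKM in E5, were inside the range of the other tumors. So were the summed markers of T cells (21.7 FPKM in E5, highest in E1) and of B cells (0.918 FPKM, highest in NE3). Red blood cell markers summed to 37.4 FPKM in E5 and were highest in NE4, at 72.0 FPKM. Skeletal muscle markers, of which 5 of 6 passed, summed to 9540 FPKM in NE4, the non-exercise tumor with the highest S100a8, S100a9, Lcn2 and Retnlg, and to 4.30 to 1560 FPKM in the other tumors, with Myh4 and Tnnc2 at 0 in some. The part of these cell types in the levels of the 10 genes was not tested.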

How the data were processed

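Per the labels, mRNA of 5 exercise and 5 non-exercise tumors was sequenced. By the methods, the authors used Hisat2 for alignment and Stringtie for expression, and they deposited a table with whole-number read counts and FPKM per gene and tumor. The deposited FPKM equal count over length and total (largest relative deviation 5.12e-15), without TMM. The methods name Rnor 6.0, whereas the table holds mouse identifiers. The build of its coordinates is not given in the sources used here (565 of 21902 matched genes have GRCm38 positions), so positions come from GENCODE M21.

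Counts were fitted with the quasi-likelihood test of edgeR 4.0.16 under R 4.3.3, after TMM scaling and filterByExpr on the groups, with Benjamini-Hochberg adjustment, and the code was tested on simulated data. Alternatives were DESeq2 1.42.0, edgeR's exact test, limma 3.58.1 on log2(FPKM + 1), other scalings and filters, other thresholds, the replicate number as a block and leaving out each tumor. Correlations used 100000 permutations (scipy 1.17.1). CPM of correlations include TMM factors (0.951 to 1.02).

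The members and lists were chosen with earlier results of these data known. Named genes are the 10 members, the 3 genes with the smallest unadjusted p of each list, the 5 genes most like S100a8, Csf3r and Csf3, sequence-sharing paralogs and marker genes beside a result. Cxcr2, Ctsg, Elane, Mpo, Itgb2l, Il17a, Ngp, Ltf, Camp, Stfa2l1, G0s2, Asprv1, Retn, Retnla, Cxcl1 and Ppbp were otherwise named after their values were seen. Nothing in the labels says more than that each library is a separate sample, so p values measure the spread between these samples.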

Additional observations from a re-analysis of the deposited data

Results flagged for a closer look

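In 8 of the 20 groups of 5 tumors (10 genes in 2 groups), a single tumor lay past Dixon's 95% limit of 0.71 for the gap to its nearest neighbor over the range. The tumor was E5 in all 8. Chance passes this limit in about 1 of 20 independent groups, but these groups share their tumors and 3 of the 8 values (S100a8, S100a9 and Chil3) were chosen for being high, so the count is not read against chance. Its level was 2.45 FPKM for Csf3 (next highest exercise tumor 0.153), 21.8 for Csf3r (6.47), 82.5 for Il1b (34.2), 13.2 for Il1r2 (5.11), 101 for S100a8 (3.81), 189 for S100a9 (10.2), 24.8 for Lcn2 (1.11) and 52.4 FPKM for Chil3 (20.1). Retnlg and Trem1 in E, and all 10 genes in NE, were within the limit.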

How the results depend on the processing

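In every alternative run, 0 of the tested members were called. A 2-fold difference combined with an unadjusted p of 0.05 or less called 4 pathway genes (Cxcl2, Cxcl3, Cxcl5 and Mmp9), and 0 were called otherwise. How many of all tested genes passed this pair of thresholds was not counted. Without E5 the unadjusted p by edgeR was 0.0749 for Cxcl2, 0.210 for Cxcl3, 0.157 for Cxcl5 and 0.0650 for Mmp9. Leaving out each tumor in turn gave log2 fold changes of -0.21 to 0.88 for Csf3r, -0.23 to 3.51 for Lcn2 and -0.69 to 0.91 for Retnlg, each lowest without E5. Retnlg was also negative without NE1 (-0.24) and without NE5 (-0.12). For Trem1 the range was 0.76 to 1.05. Leaving out each tumor moved r to -0.11 to 0.815 for Csf3 with Csf3r, 0.642 to 0.930 for Il1b with Il1r2, and 0.290 to 0.886 for Csf3 with Il1b, lowest without E5, and 0.821 to 0.948 for Csf3r with Il1r2. Without the 2 tumors farthest from the median, r was -0.148 for Csf3 with Csf3r, 0.503 for Csf3r with Il1r2 and 0.223 for Csf3 with Il1b. On log2(FPKM + 1), log2 fold changes were 0.90 for S100a8, 0.95 for S100a9, 0.77 for Lcn2 and 0.35 for Csf3r, and with a replicate block 0.85, 0.85, 1.16 and 0.36. The paper speaks of matched pairs but neither it nor the labels say what was matched or that numbers mark the pairs. Same-numbered tumors did not deviate together as a rule (correlations of deviations -0.266 to 0.323, 1 of 10 tumors closest to its own number), so the replicate block was kept as an alternative. It called 0 members. The cause of these differences was not tested. Depth limits Csf3 (0 to 4 reads outside E5) and the lowest values of Lcn2 and Retnlg.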

Other observations

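Ngp, Ltf and Camp, 3 genes of the specific granules of neutrophils, were highest in NE4, whereas Lcn2 and Mmp8, whose products are stored there too, were highest in E5. Ngp had 149 reads in NE4 and 0 to 13 in the other 9 tumors, Ltf had 69 reads in NE4 and 1 to 16 in the others, and Camp had 18 reads in NE4 and 0 to 3 in the others. In E5, where S100a8 had 1057 reads, these genes had 3, 16 and 0 reads. Retn, a paralog of Retnlg, had 80 reads in NE4 and 0 reads in E5, while Retnla had 46.4 FPKM in NE4 and 44.9 FPKM in E5. Stfa2l1, by contrast, had 50 reads in E5 and 0 to 2 in the others, and G0s2 had 167 reads in E5 and 7 to 62 in the others. Asprv1 had 226 reads in NE5, 83 reads in E5 and 1 to 10 reads elsewhere, and NE5 was also the tumor with the highest summed keratinocyte markers (54.0 FPKM, against 0.311 to 1.03 FPKM in the others). These genes were singled out after their values were seen and were not tested.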
